A study of Mus musculus with 19 samples.

Results

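Kupffer cells are the resident macrophages of the liver, and 9 genes that mark them in the mouse were followed here through 19 liver RNA libraries. The genes were Clec4f, Vsig4, Timd4, Cd5l, Marco, Adgre1, Cd163, Folr2 and Csf1r. They were taken as a fixed list of symbols from the deposited table of 55416 gene rows. All 9 were found there by Ensembl ID and all 9 passed the low-count filter that left 15570 genes for testing. The livers came from C57BL/6 mice in 5 groups. Normal livers (4 libraries) came from wild-type (WT) mice that were not injected. WT vehicle (4 libraries) and WT PRA (4 libraries) came from WT mice that were injected 2 times into the peritoneum, with 3 h between injections, with vehicle or with 4 mg of the loop diuretic furosemide each time. PRA, pre-renal azotemia, is a retention of nitrogenous waste caused by poor perfusion of the kidneys. Knockout vehicle (4 libraries) and knockout PRA (3 libraries) came from IL-6 knockout mice given the same injections. Injected mice were sampled 6 h after the first injection. Poly(A) RNA of whole liver was sequenced, so hepatocyte transcripts dominate each library and Kupffer cell transcripts are a small share.

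Kupffer cells lie inside the liver sinusoids, where they take up bacteria, aged erythrocytes, haemoglobin complexes and apoptotic cells from portal and arterial blood. They are long-lived, depend on signalling through the receptor CSF1R, and keep their identity through signals from sinusoidal endothelial and stellate cells, among them the Notch ligand DLL4 and BMP9 (encoded by Gdf2). Their identity program includes the nuclear receptor LXR-alpha (Nr1h3), the transcription factor Spic and the macrophage regulator PU.1 (Spi1). Several of the 9 markers are shared with other macrophages. Adgre1 encodes F4/80 and Csf1r the receptor for CSF1 and IL-34, which monocytes and most tissue macrophages also carry. Vsig4 and Timd4 are also made by large peritoneal macrophages. Clec4f is restricted to Kupffer cells in the mouse.

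Promoter sequences are shown for the 3 markers that varied most closely together between replicates and were among the highest per kilobase of transcript (Clec4f, Vsig4 and Cd5l), and for the 2 that departed from them (Marco and Cd163). Each window spans 300 bases around the RefSeq transcript start on GRCm38.p6, most of them upstream, is written 5′ to 3′ in the direction of the gene, and carries in capitals every match of GAGGAA on either strand, a short core of binding sites for the macrophage factor PU.1.
Clec4f promoter (chr6:83656067-83656366, minus strand): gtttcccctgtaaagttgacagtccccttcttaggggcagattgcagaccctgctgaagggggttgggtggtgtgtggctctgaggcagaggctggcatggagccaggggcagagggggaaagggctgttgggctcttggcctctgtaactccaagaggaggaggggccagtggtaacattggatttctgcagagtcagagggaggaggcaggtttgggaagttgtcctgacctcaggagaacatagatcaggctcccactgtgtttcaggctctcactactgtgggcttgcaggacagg
Vsig4 promoter (chrX:96293389-96293688, minus strand): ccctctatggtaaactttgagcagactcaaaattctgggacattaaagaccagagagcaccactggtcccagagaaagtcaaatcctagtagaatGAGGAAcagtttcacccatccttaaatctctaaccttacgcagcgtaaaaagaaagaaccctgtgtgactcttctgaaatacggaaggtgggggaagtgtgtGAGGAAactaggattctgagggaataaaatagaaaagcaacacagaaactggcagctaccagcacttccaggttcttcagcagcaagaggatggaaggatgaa
Cd5l promoter (chr3:87357631-87357930, plus strand): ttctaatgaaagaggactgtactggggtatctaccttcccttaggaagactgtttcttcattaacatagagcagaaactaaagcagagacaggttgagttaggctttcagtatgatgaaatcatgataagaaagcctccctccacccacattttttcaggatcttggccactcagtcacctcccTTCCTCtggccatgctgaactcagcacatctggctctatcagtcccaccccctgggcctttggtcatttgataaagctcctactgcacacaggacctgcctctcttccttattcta
Marco promoter (chr1:120504975-120505274, minus strand): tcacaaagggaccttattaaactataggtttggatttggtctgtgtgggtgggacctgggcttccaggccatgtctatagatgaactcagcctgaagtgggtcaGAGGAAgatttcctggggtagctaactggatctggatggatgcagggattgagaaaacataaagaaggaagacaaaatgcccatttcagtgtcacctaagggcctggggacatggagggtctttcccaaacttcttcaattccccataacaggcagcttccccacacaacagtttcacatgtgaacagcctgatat
Cd163 promoter (chr6:124304401-124304700, plus strand): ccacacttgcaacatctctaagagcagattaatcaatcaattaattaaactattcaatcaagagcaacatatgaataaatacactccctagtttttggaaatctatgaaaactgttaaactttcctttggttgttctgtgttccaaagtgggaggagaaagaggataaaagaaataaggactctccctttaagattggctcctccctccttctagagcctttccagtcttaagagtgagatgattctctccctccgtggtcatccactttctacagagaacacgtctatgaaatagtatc
GAGGAA or its complement was found once in the Marco window, once in the Cd5l window, on the opposite strand, and 2 times in the Vsig4 window. It was not found in the windows of Clec4f, Cd163, Timd4 or either of the 2 Folr2 starts. Of 32851 mouse promoters of this length, 28.3% hold it. The longer core GAGGAAGT, held by 3.2% of promoters, was in none of the 8 windows. The direct repeat bound by LXR, held by 0.0152%, and the E-box CACGTG, held by 7.15%, were in none either. A further motif searched, TGCTGAC, is held by 4.67% of promoters and was found once, in the Timd4 window. Both strands were searched, GAGGAA lies within GAGGAAGT, and a match describes the letters and not a binding site. Windows of Adgre1 and Csf1r were not included, so the motif counts do not cover these markers. Their absence here does not show that the reference lacks them.

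Gene counts per library ranged from 32073865 to 74041441, and a count of 0 corresponds to at most 0.0405 to 0.0935 CPM (counts scaled to library size). This floor is 3 counts over the total gene counts, without the TMM scaling applied to the other CPM values. The liver label was borne out by Alb, the albumin transcript, at 45660 to 101200 CPM. Il6 itself could not check the genotype labels, since it had 0 to 4 counts in all WT and normal libraries and 1 to 16 counts in libraries labelled knockout. TMM scaling factors were 0.845 to 0.953 in PRA libraries and 1.01 to 1.16 in the others, so a level in CPM depends on that scaling. The labels do not say that replicates came from separate mice, and the p-values therefore reflect only how far these libraries spread, which may be technical. Normal replicate 1 and WT vehicle replicate 4 stood apart: each was the lowest library of its group for 9 of 9 markers, at a median of 0.491 and 0.432 times the mean of the other libraries of the group. Of 16 genes of macrophages and phagocytes in general, 12 were lowest in normal replicate 1 and 15 in WT vehicle replicate 4, with median ratios of 0.732 and 0.572. Hepatocyte markers had median ratios of 1.01 and 0.977 there, and sinusoidal endothelial markers 0.931 and 0.844. In whole-liver RNA, fewer Kupffer cells and less marker RNA per Kupffer cell cannot be told apart. Results of the 9 markers are given below with and without these libraries where they touch a call.

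All 9 markers were well detected, and the lowest count of any marker in any library was 102, for Marco in normal replicate 1. Per kilobase of exon, Clec4f and Cd5l were the most abundant, with means over the 19 libraries of 33.3 and 29.6 CPM per kilobase. Vsig4 followed at 12.5, Marco at 6.63, Csf1r at 6.01 and Folr2 at 4.25 CPM per kilobase. Timd4, Cd163 and Adgre1 were lowest, at 2.60, 2.41 and 2.201 CPM per kilobase. The lowest level of each marker over all 19 libraries was in normal replicate 1. The summed level of the 9 markers was 95.1 to 222.6 CPM in normal livers, 119.8 to 292.5 CPM after vehicle in WT, 228.9 to 351.8 CPM in WT PRA, 258.0 to 303.4 CPM in knockout vehicle and 225.7 to 273.3 CPM in knockout PRA. These ranges overlapped between all injected groups, while every WT PRA and every knockout library lay above every normal library.

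**Figure D1:**
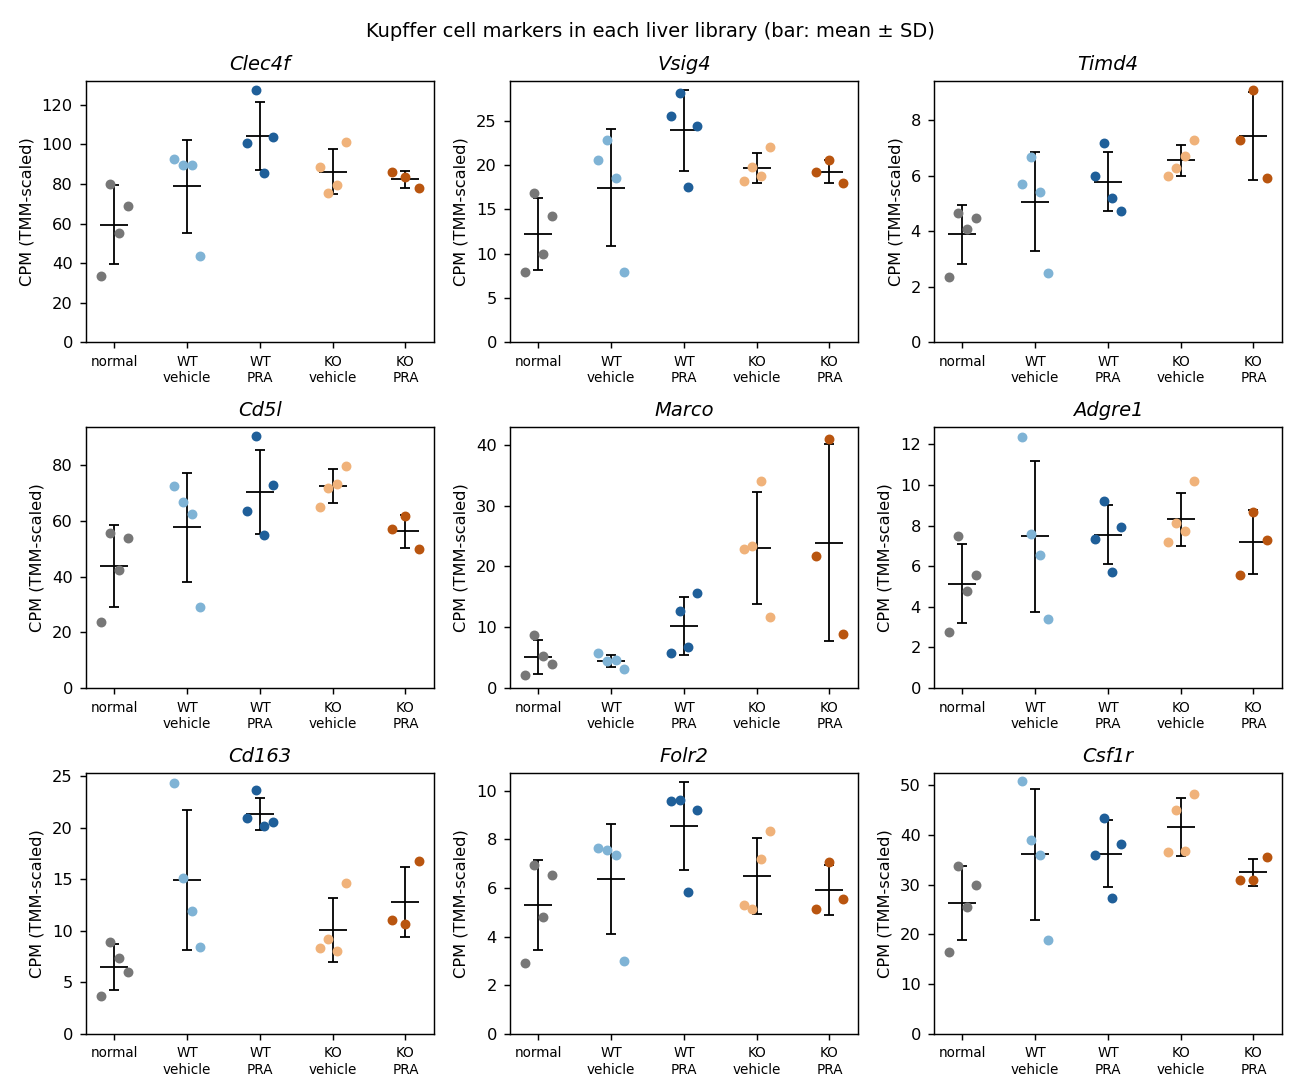
Level of each of the 9 markers in CPM (vertical axis, linear, TMM-scaled) in every library, by group (horizontal axis). Points are libraries, and bars are the mean ± SD of the group. Marco stands at 8.88 to 41.05 CPM in the 7 knockout libraries and at 2.13 to 15.6 CPM in the 12 others, while Cd163 is highest in WT PRA livers, at 20.1 to 23.7 CPM.

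Clec4f encodes a C-type lectin that binds terminal galactose and N-acetylgalactosamine residues. In normal livers its level was 33.4, 79.9, 55.4 and 69.0 CPM, in WT vehicle 92.8, 89.7, 89.5 and 43.4 CPM, and in WT PRA 100.9, 127.4, 85.7 and 103.9 CPM. Knockout vehicle livers had 88.6, 75.6, 79.3 and 101.1 CPM and knockout PRA livers 86.1, 83.4 and 77.8 CPM. WT PRA was higher than normal in every library, and the other injected groups overlapped with each other and with WT PRA. Vsig4 encodes CRIg, the complement receptor with which Kupffer cells capture C3-opsonised particles from flowing blood. It was at 7.95, 16.9, 9.94 and 14.3 CPM in normal livers, at 20.5, 22.9, 18.5 and 7.96 CPM in WT vehicle and at 25.5, 28.2, 17.5 and 24.5 CPM in WT PRA. Knockout livers had 18.2, 19.8, 18.8 and 22.1 CPM after vehicle and 19.2, 20.6 and 17.99 CPM in PRA. Its order of groups was the same as that of Clec4f, from normal through WT vehicle, knockout PRA and knockout vehicle to WT PRA, and neighbouring groups overlapped. Timd4 encodes TIM-4, a receptor for phosphatidylserine on apoptotic cells that marks long-resident Kupffer cells. Its mean level was lowest in normal livers (3.885 ± 1.055 CPM, SD, n = 4), followed by WT vehicle (5.07 ± 1.79, n = 4), WT PRA (5.78 ± 1.07, n = 4), knockout vehicle (6.56 ± 0.561, n = 4) and knockout PRA (7.42 ± 1.59, n = 3), with overlap between each pair of neighbours in that order.

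Cd5l, Marco and Cd163 belong to the scavenger receptor cysteine-rich family. Cd5l encodes a secreted protein, also called AIM, that circulates bound to IgM. It was at 43.8 ± 14.7 CPM in normal, 57.7 ± 19.5 in WT vehicle, 70.35 ± 15.2 in WT PRA and 72.5 ± 6.09 in knockout vehicle (SD, n = 4 each), and at 56.3 ± 5.94 CPM (n = 3) in knockout PRA. The 3 knockout PRA libraries, at 57.0, 61.8 and 50.0 CPM, all lay under the 4 knockout vehicle libraries, at 65.0 to 79.8 CPM. Marco encodes a receptor for bacteria and other polyanionic particles. It was at 2.13, 8.75, 5.34 and 3.97 CPM in normal livers, at 5.68, 4.35, 4.57 and 3.145 CPM in WT vehicle and at 5.75, 12.6, 6.72 and 15.6 CPM in WT PRA. In knockout livers it was at 22.9, 23.3, 34.1 and 11.7 CPM after vehicle and at 21.8, 41.05 and 8.88 CPM in PRA. Every knockout vehicle library was above every WT vehicle and every normal library. Marco spanned 19.25-fold between its lowest and highest library, against 3.09-fold to 6.61-fold for the other 8 markers. Cd163 encodes the receptor for haemoglobin-haptoglobin complexes. It was at 3.68, 8.87, 7.38 and 6.01 CPM in normal livers, at 24.3, 15.1, 11.95 and 8.47 CPM in WT vehicle and at 21.0, 23.7, 20.1 and 20.6 CPM in WT PRA. Knockout livers had 8.30, 9.20, 8.01 and 14.6 CPM after vehicle and 11.0, 10.7 and 16.8 CPM in PRA. The WT PRA libraries were close to each other and lay above every normal and every knockout library, but within the range of WT vehicle.

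Adgre1 encodes the adhesion receptor F4/80. It ranged from 2.74 to 7.48 CPM in normal, from 3.40 to 12.4 CPM in WT vehicle, from 5.73 to 9.22 CPM in WT PRA, from 7.21 to 10.2 CPM in knockout vehicle and from 5.55 to 8.69 CPM in knockout PRA livers, and all groups overlapped with their neighbours. Folr2 encodes folate receptor beta. Its level was 2.91 to 6.96 CPM in normal, 2.98 to 7.66 CPM in WT vehicle, 5.835 to 9.61 CPM in WT PRA, 5.13 to 8.34 CPM in knockout vehicle and 5.14 to 7.085 CPM in knockout PRA livers. Csf1r ranged from 16.4 to 33.7 CPM in normal, from 18.8 to 50.8 CPM in WT vehicle, from 27.3 to 43.4 CPM in WT PRA, from 36.5 to 48.2 CPM in knockout vehicle and from 30.9 to 35.6 CPM in knockout PRA livers. In GENCODE vM21 the exons of Folr2 share 975 bases with Gm10602 and those of Csf1r share 873 bases with Hmgxb3, both on the opposite strand. The strand setting of the counting is not given in the sources used here, so reads from these overlaps cannot be told apart. The other 7 markers share no exon bases with another gene in that annotation.

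PRA in WT livers, the comparison that asks how the liver responds to azotemia, changed none of the 9 markers past the threshold. The edgeR quasi-likelihood test, adjusted over 15570 genes by Benjamini-Hochberg at 0.05, called 0 of 9, in a comparison where it called 22.1% of all genes. Marco alone had an unadjusted p under 0.05, as did 34.5% of all genes. DESeq2 called 0 of 9 and limma-voom with sample weights called 1, Cd163. The estimates of all 9 were above 0, with a median log2 fold change of 0.41 against -0.03 over all genes tested, but when libraries were scaled by their totals alone, which moved the median of all genes to -0.33, those of Timd4, Cd5l, Adgre1 and Csf1r fell below 0. Clec4f had a log2 fold change of 0.41 ± 0.24 (SE, edgeR adjusted p = 0.244, 95% interval -0.10 to 0.91) and Vsig4 of 0.45 ± 0.26 (edgeR adjusted p = 0.24, interval -0.11 to 1.01). Csf1r and Adgre1 were at 0.00 ± 0.25 and 0.01 ± 0.32, with intervals from -0.52 to 0.53 and from -0.66 to 0.68. Their estimates turned negative under upper quartile scaling and in a fit without WT vehicle replicate 4. Marco had the largest estimate of the 9, 1.203 ± 0.50 (edgeR adjusted p = 0.103, interval 0.13 to 2.28). Its 4 WT PRA libraries lay above all 4 WT vehicle libraries, and 11.1% of all genes were higher without overlap in this comparison. Marco passed in a fit to only these 2 groups (adjusted p = 0.0272), and Cd163 (0.51 ± 0.30, adjusted p = 0.243) passed without WT vehicle replicate 1 (0.86, adjusted p = 0.0339), the library with 24.3 CPM.

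In knockout livers PRA also gave 0 of 9 calls by edgeR, against 16.3% of all genes. None had an unadjusted p under 0.05, which 29.5% of all genes had, and neither DESeq2 nor limma-voom called any. Of the 9 estimates, 3 were above 0 and 6 below, with a median of -0.06 against -0.00 over all genes. Cd5l had the lowest, -0.36 ± 0.29 (SE, edgeR adjusted p = 0.433), and passed in a fit to only these 2 groups (adjusted p = 0.049). Csf1r was at -0.36 ± 0.27 (edgeR adjusted p = 0.405), and its 3 knockout PRA libraries, at 30.9 to 35.6 CPM, lay below all knockout vehicle libraries. Without overlap, 2 of 9 markers were lower, against 13.2% of all genes. The difference between the responses was tested as an interaction, with the response of WT livers subtracted from that of knockout livers. It called 0 of 9 markers and 0.475% of all genes, no marker but 8.94% of all genes had an unadjusted p under 0.05, and DESeq2 and limma-voom called 0 as well. The 9 interaction estimates lay between -1.15 (Marco, ± 0.72, SE, edgeR adjusted p = 0.725) and -0.01 (Timd4, ± 0.35, adjusted p = 0.997). The 95% interval of Clec4f ran from -1.21 to 0.28.

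**Figure D2:**
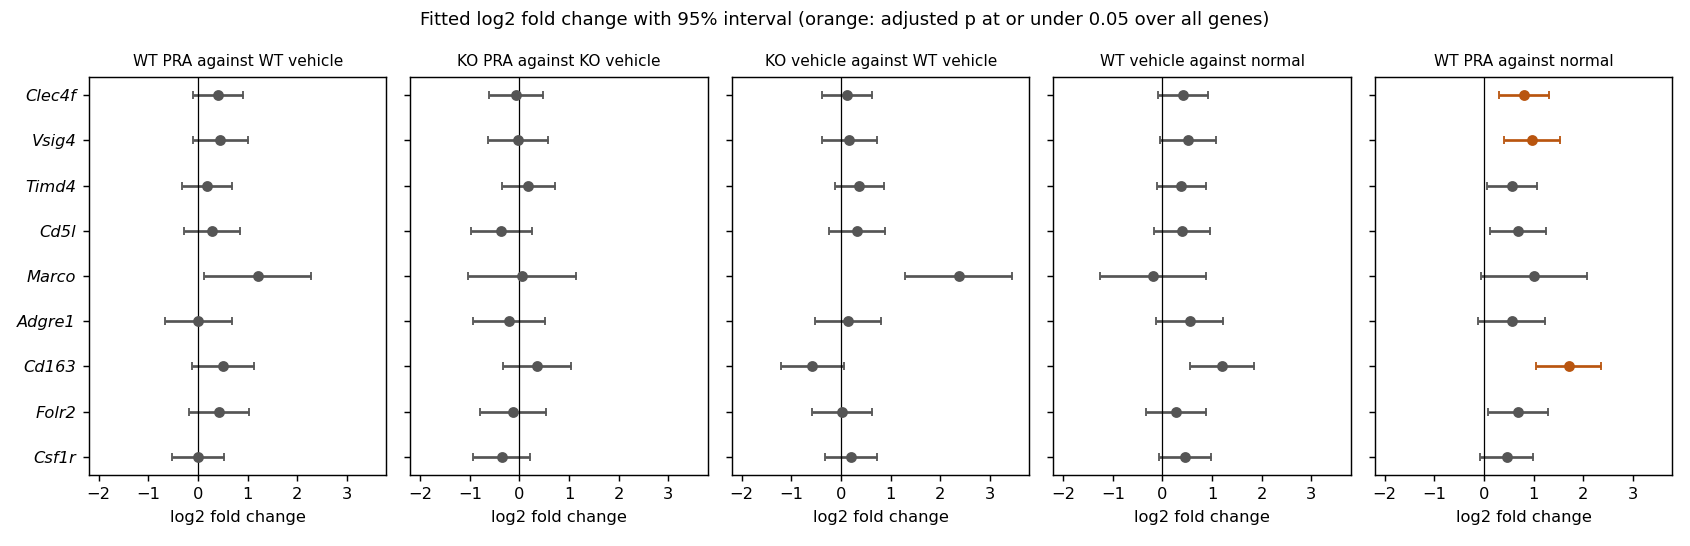
Fitted log2 fold change of each marker (horizontal axis, points) with its 95% interval (bars) in 5 comparisons. Orange marks an adjusted p at or under 0.05 over all genes. Clec4f, Vsig4 and Cd163 are orange in WT PRA against normal, and no other point is. Marco lies at 2.37 in knockout vehicle against WT vehicle.

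The genotype comparisons set knockout against WT livers under the same injection. After vehicle, edgeR called 0 of 9 markers and 0.0706% of all genes, and 1 marker, Marco, had an unadjusted p under 0.05 (5.99% of all genes). Marco was at 23.0 ± 9.16 CPM in knockout and 4.44 ± 1.04 CPM in WT vehicle livers (SD, n = 4 each), a log2 fold change of 2.37 ± 0.51 (SE, 5.17-fold, 95% interval 1.28 to 3.46) with an unadjusted p of 0.000318 and an edgeR adjusted p of 0.15. The groups did not overlap, which held for 1.54% of all genes in this direction. DESeq2 called Marco (adjusted p = 0.00169), as did edgeR fitted to only these 2 groups (adjusted p = 0.0465), and limma-voom called 0 markers. Over its 18 refits the estimate stayed between 2.12 and 2.59. Under PRA, edgeR called 0 of 9 markers and 3.8% of all genes, and 2 markers, Marco and Cd163, had an unadjusted p under 0.05 (16.3% of all genes). Marco was at 23.9 ± 16.2 CPM (n = 3) in knockout and 10.2 ± 4.73 CPM (n = 4) in WT PRA livers (1.22 ± 0.52, SE, edgeR adjusted p = 0.249), and the groups overlapped. Cd163 was lower in all 3 knockout PRA libraries than in any WT PRA library, at 12.8 ± 3.42 against 21.35 ± 1.60 CPM (-0.74 ± 0.33, edgeR adjusted p = 0.271), and 7.26% of all genes were lower without overlap. Cd163 passed in limma-voom (adjusted p = 0.0459) and in a fit to only these 2 groups (adjusted p = 0.00387), and DESeq2 called 0 markers.

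Averaged over vehicle and PRA, a contrast chosen after the values of Marco were seen, knockout livers had more Marco than WT livers by 1.79 ± 0.36 on the log2 scale (SE, 3.47-fold, edgeR adjusted p = 0.0117), and 3.37% of all genes passed. In 25 refits with another scaling, filter, tool or 1 or 2 libraries left out, Marco passed every time, with adjusted p between 6.99e-05 and 0.0371. Cd163 differed in the other direction (-0.66 ± 0.22, edgeR adjusted p = 0.136), and passed in 2 of 25 refits, with limma-voom (adjusted p = 0.0373) and without both low libraries (adjusted p = 0.0271). The other 7 markers did not pass. None of the 9 markers lies on chromosome 5, which carries Il6: Marco is on chromosome 1 and Cd163 on chromosome 6. The cause of the differences between genotypes was not tested, and these positions do not test it.

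Against normal livers, 3 of 9 markers were higher in WT PRA. Cd163 was at 6.49 ± 2.21 CPM in normal and 21.35 ± 1.60 CPM in WT PRA livers (SD, n = 4 each). It rose 3.28-fold (log2 1.71 ± 0.31, SE, edgeR adjusted p = 0.000565). Vsig4 rose 1.95-fold, from 12.3 ± 4.05 to 23.9 ± 4.57 CPM (0.965 ± 0.27, edgeR adjusted p = 0.012), and Clec4f 1.76-fold, from 59.45 ± 20.03 to 104.5 ± 17.25 CPM (0.81 ± 0.24, edgeR adjusted p = 0.0177). Calls were made for 28.4% of all genes and upward calls for 13.5%. The estimates of the other 6 markers lay between 0.46 and 1.02 and did not pass, and the median of the 9 was 0.69 against -0.02 over all genes. Clec4f, Vsig4, Timd4 and Cd163 were higher without overlap, as were 16.7% of all genes. Clec4f lost its call without WT PRA replicate 2 (0.70, adjusted p = 0.057), and both Clec4f and Vsig4 lost theirs when libraries were scaled by their totals alone (adjusted p = 0.13 and 0.0642). Cd163 passed in each of 18 refits. DESeq2 and limma-voom each called 5 markers, adding Cd5l and Folr2. Cd5l also passed in edgeR without normal replicate 1 and WT vehicle replicate 4 (0.48, adjusted p = 0.0183) and without normal replicate 2 (0.82, adjusted p = 0.0492).

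WT vehicle against normal, which compares injected with non-injected mice, gave 0 of 9 calls by edgeR and 2.0% of all genes. Cd163 was the only marker with an unadjusted p under 0.05, against 15.2% of all genes. It was at 15.0 ± 6.81 after vehicle and 6.49 ± 2.21 CPM in normal livers (SD, n = 4 each, 1.21 ± 0.30, SE, edgeR adjusted p = 0.0532), the groups overlapped through WT vehicle replicate 4, and DESeq2 (adjusted p = 0.00966) and limma-voom (adjusted p = 0.0213) each called it. Without WT vehicle replicate 4 it passed in edgeR as well (1.40, adjusted p = 0.0235). These comparisons share libraries: WT vehicle enters the PRA, genotype and normal comparisons, and the normal libraries enter both of the last. Over all 5 groups, the quasi-likelihood test on any difference called Marco (edgeR adjusted p = 0.00254), Cd163 (0.00365) and Timd4 (0.0466), 3 of 9, where 34.5% of all genes were called. Marco and Cd163 kept their calls in every refit. Timd4 kept its call when WT vehicle replicate 2, WT vehicle replicate 4 or knockout PRA replicate 3 was left out, and lost it when any other single library was. The count was 2 to 7 over these refits, with 7 without WT vehicle replicate 4, and was 6 without that library and normal replicate 1.

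Between replicates of a group the markers varied together, with the exception of Marco and, in part, Cd163. Deviations of log2 CPM from the group mean were compared over the 19 libraries, which share their total count and scaling within a library. The 21 pairs among Clec4f, Vsig4, Timd4, Cd5l, Adgre1, Folr2 and Csf1r had Pearson r of 0.803 to 0.961 (median 0.908, Spearman rho 0.667 to 0.928). Cd163 had r of 0.608 to 0.855 with these 7, highest with Csf1r (0.855) and Adgre1 (0.853) and lowest with Timd4. Marco had r of 0.123 to 0.572 with the other 8, highest with Cd5l and lowest with Cd163. Much of this rested on the 2 low libraries. Over the 17 libraries without normal replicate 1 and WT vehicle replicate 4, the 21 pairs had r of 0.242 to 0.844 (median 0.668), Cd163 had 0.00882 to 0.713 with the 7, and Marco had -0.305 to 0.460 with the 8.

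**Figure D3:**
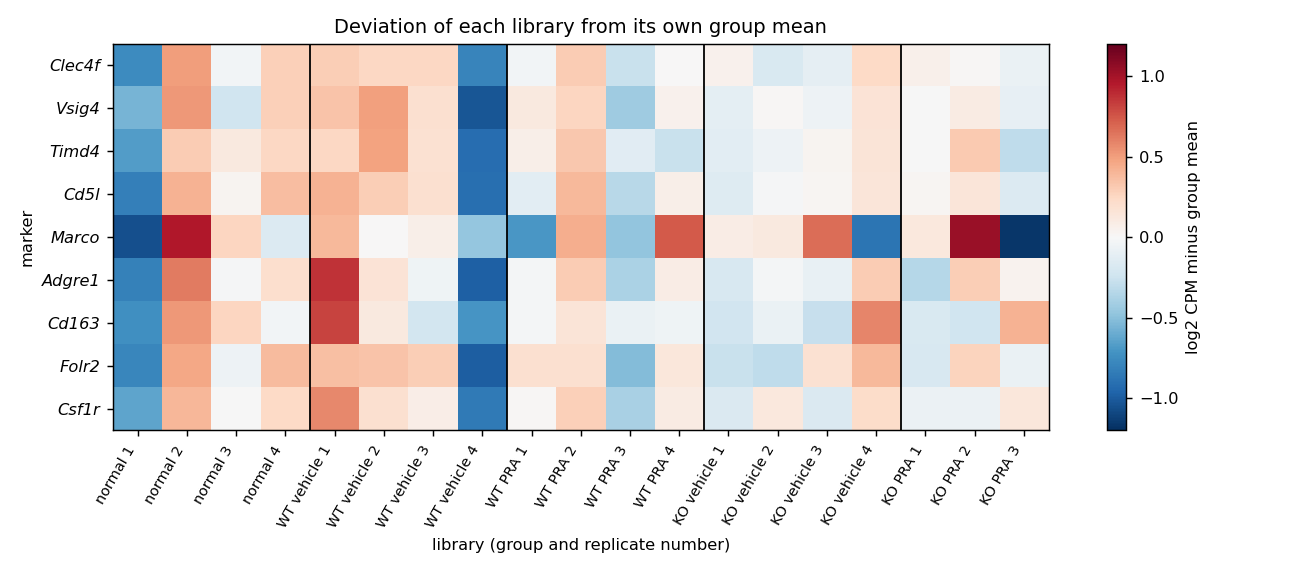
Deviation of each library from the mean of its own group (colour, log2 CPM) for the 9 markers (rows) in the 19 libraries (columns, divided by group). Normal replicate 1 and WT vehicle replicate 4 are blue in all 9 rows. Marco has its own pattern in the WT PRA and knockout libraries, where knockout PRA replicate 2 is above and replicate 3 below its group.

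The genes most like the 9 markers in these deviations were sought among 15533 tested genes with a symbol. The 8 with the highest median r over the markers were Lilra5 (an activating leukocyte immunoglobulin-like receptor, median r 0.894), Cd300ld (0.887), C1qc (a chain of complement C1q, 0.883), Cfp (properdin, 0.879), Slc11a1 (a metal transporter of the phagosome, 0.874), Vav1 (a guanine nucleotide exchange factor, 0.872), Tyrobp (the adaptor DAP12, 0.871) and Fcna (ficolin A, 0.852). Over all genes the median was 0.00453 and the 95th percentile 0.449. Without the 2 low libraries these 8 had median r of 0.486 to 0.652. Clec4f was most like Lilra5 (r = 0.968, and 0.893 without the 2 libraries), Vsig4 most like Fcgr4 (0.934 and 0.878) and Timd4 most like Cfp (0.925 and 0.665). Adgre1 and Csf1r were both most like Syk (0.926 and 0.953), Folr2 most like Tm6sf1 (0.923) and Cd163 most like Sdc3 (0.880). Marco was most like Hnrnpc (0.840, and 0.790 without the 2 libraries), which encodes an RNA-binding protein made in most cells. Of the 8 genes with the highest median r, 4 passed in WT PRA against WT vehicle, where 22.1% of all genes did. Cfp rose 1.53-fold (edgeR adjusted p = 0.0403), Slc11a1 1.48-fold (0.0451), Vav1 1.70-fold (0.0143) and Tyrobp 1.47-fold (0.0296). The low library WT vehicle replicate 4 enters both this comparison and the likeness by which the genes were chosen. Results of these genes without that library are not given here.

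Dividing each marker by Clec4f in the same library gives a value that does not depend on the scaling of the library. The ratio of Marco to Clec4f was 0.259, 0.309, 0.431 and 0.116 in knockout vehicle and 0.0612, 0.0486, 0.0511 and 0.0724 in WT vehicle libraries. All 4 knockout values were above all 4 WT values. In WT PRA the ratio was 0.0570 to 0.150 and in knockout PRA 0.114 to 0.492, with overlap. The ratio of Cd163 to Clec4f was 0.0871 to 0.133 in normal, 0.134 to 0.262 in WT vehicle and 0.186 to 0.235 in WT PRA libraries. Here WT vehicle no longer overlapped with normal, since its replicate 4, low in both genes, had 0.195. Knockout vehicle had 0.0937 to 0.145 and knockout PRA 0.128 to 0.216. The ratio of Csf1r to Clec4f was 0.318 to 0.367 in WT PRA, under all WT vehicle (0.402 to 0.547) and all normal libraries (0.421 to 0.492). Ratios of Vsig4 and Cd5l overlapped in each comparison made. The ratio of Timd4 to Clec4f was higher in all knockout PRA than in all WT PRA libraries. That of Adgre1 was lower in all WT PRA than in all normal libraries. That of Folr2 was lower in all WT vehicle than in all normal libraries. These ratios were compared by overlap only and were not tested. The share of all genes whose ratio to Clec4f would separate the groups was not computed.

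**Figure D4:**
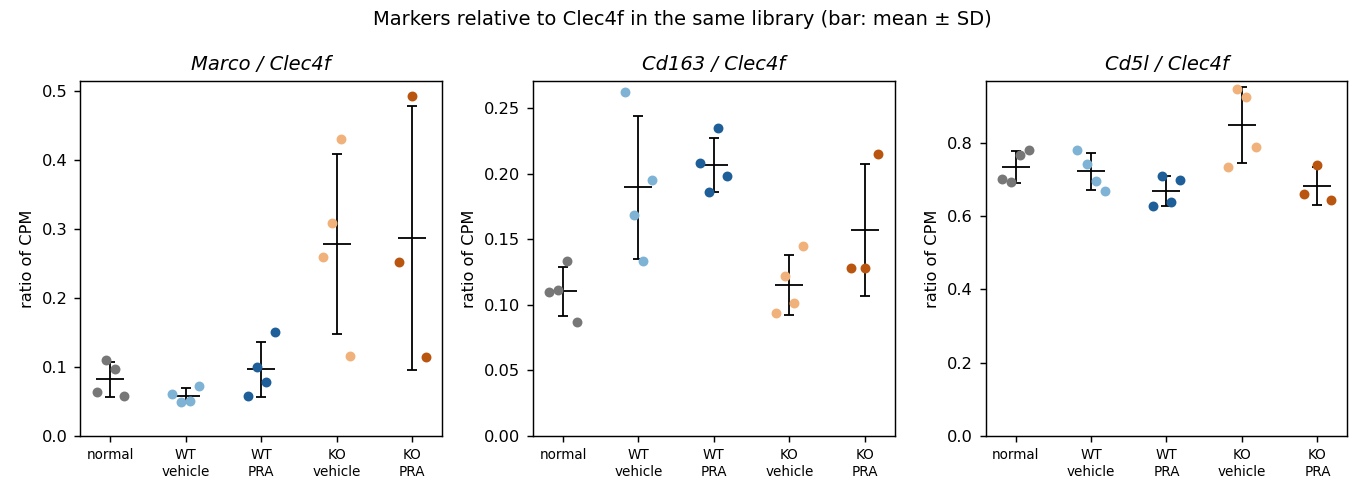
Ratio of the CPM of Marco, Cd163 and Cd5l to that of Clec4f in the same library (vertical axis, linear, no unit), by group. Points are libraries, and bars are the mean ± SD. Marco has ratios of 0.116 to 0.431 in knockout vehicle against 0.0486 to 0.0724 in WT vehicle livers, and Cd163 has 0.0871 to 0.133 in normal against 0.134 to 0.262 in WT vehicle livers.

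Signals to Kupffer cells from other liver cells were read from a list of CSF1R ligands and a list of niche genes. In WT PRA against WT vehicle, 9.74% of all genes were called higher and 12.3% lower, the shares against which the counts of the following lists stand. Both ligands of CSF1R fell in this comparison. Csf1, which encodes the main macrophage growth factor, went from 8.89 ± 2.51 to 5.32 ± 0.710 CPM (SD over 4 libraries in each group) and differed by -0.74 ± 0.15 (log2, SE, edgeR adjusted p = 0.00146), and Il34 from 3.14 ± 0.880 to 1.89 ± 0.323 CPM (-0.73 ± 0.22, adjusted p = 0.0203, past the threshold in 14 of 18 refits). WT vehicle replicate 4 had 12.63 CPM of Csf1, against 7.39 to 7.99 CPM in replicates 1 to 3. With 1 library left out the log2 fold change of Csf1 was -0.83 to -0.52, and Csf1 passed in 18 of 18 refits. In normal livers Csf1 was at 10.4 ± 1.11 CPM and Il34 at 2.01 ± 0.463 CPM (SD, n = 4 each). WT PRA was below normal for Csf1 (-0.97 ± 0.15, edgeR adjusted p = 7.01e-05), and Il34 did not pass against normal (-0.08 ± 0.22, adjusted p = 0.823). In knockout livers Csf1 fell likewise (-0.80 ± 0.17, adjusted p = 0.00214) and Il34 did not pass (-0.61 ± 0.23, adjusted p = 0.08, and 0.0497 without both low libraries). Of 8 genes for niche signals, 0 rose and 3 fell in WT PRA and 5 did not pass, with a median of -0.33. In knockout PRA 1 rose and 2 fell, where 16.3% of all genes were called. Dll4, the sinusoidal Notch ligand, fell most, from 4.07 ± 1.35 to 1.44 ± 0.285 CPM (-1.51 ± 0.22, adjusted p = 4.09e-05), and in knockout livers by 1.47 (adjusted p = 0.00023). Eng, a coreceptor for BMP9, and Gdf2, which encodes BMP9, fell by 0.44 and 0.34 (adjusted p = 0.00142 and 0.0274, the latter in 12 of 18 refits and not without WT vehicle replicate 1, -0.26, adjusted p = 0.093). Of 17 sinusoidal endothelial markers 1 rose and 11 fell (median -0.45), and Kdr, encoding a receptor for VEGF, went from 29.1 ± 7.01 to 10.05 ± 2.05 CPM (-1.53 ± 0.17, adjusted p = 1.9e-06). WT vehicle replicate 1 was the highest of its group for 16 of these 17 markers (median ratio to the other libraries 1.35) and for 6 of the 8 niche genes. It had 39.6 CPM of Kdr against 24.98 to 25.92 in the other 3 libraries and 5.86 CPM of Dll4, also the highest of the 4. Without it the log2 fold changes were -1.335 for Kdr and -1.27 for Dll4, and both passed in 18 of 18 refits.

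Among 13 transcription factors of Kupffer cell identity, 1 rose and 1 fell in WT PRA, where 22.1% of all genes were called, with a median of 0.03. Zeb2, a repressor that maintains Kupffer cell identity, fell from 5.20 ± 1.03 to 2.61 ± 0.621 CPM (-1.01 ± 0.16, edgeR adjusted p = 8.36e-05). It fell in knockout livers as well (-0.85 ± 0.17, adjusted p = 0.00127). Nr1h3, Spic and Spi1 were among the 11 that did not pass. Of 6 LXR targets 1 rose (Abca1, a cholesterol exporter, 1.99-fold, adjusted p = 5.61e-07) and 3 fell, among them Abcg1 (-0.56, adjusted p = 0.0038) and Srebf1 (-0.93, adjusted p = 0.00251). In whole liver these factors, ligands and targets are also made by cells other than Kupffer cells.

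**Figure D5:**
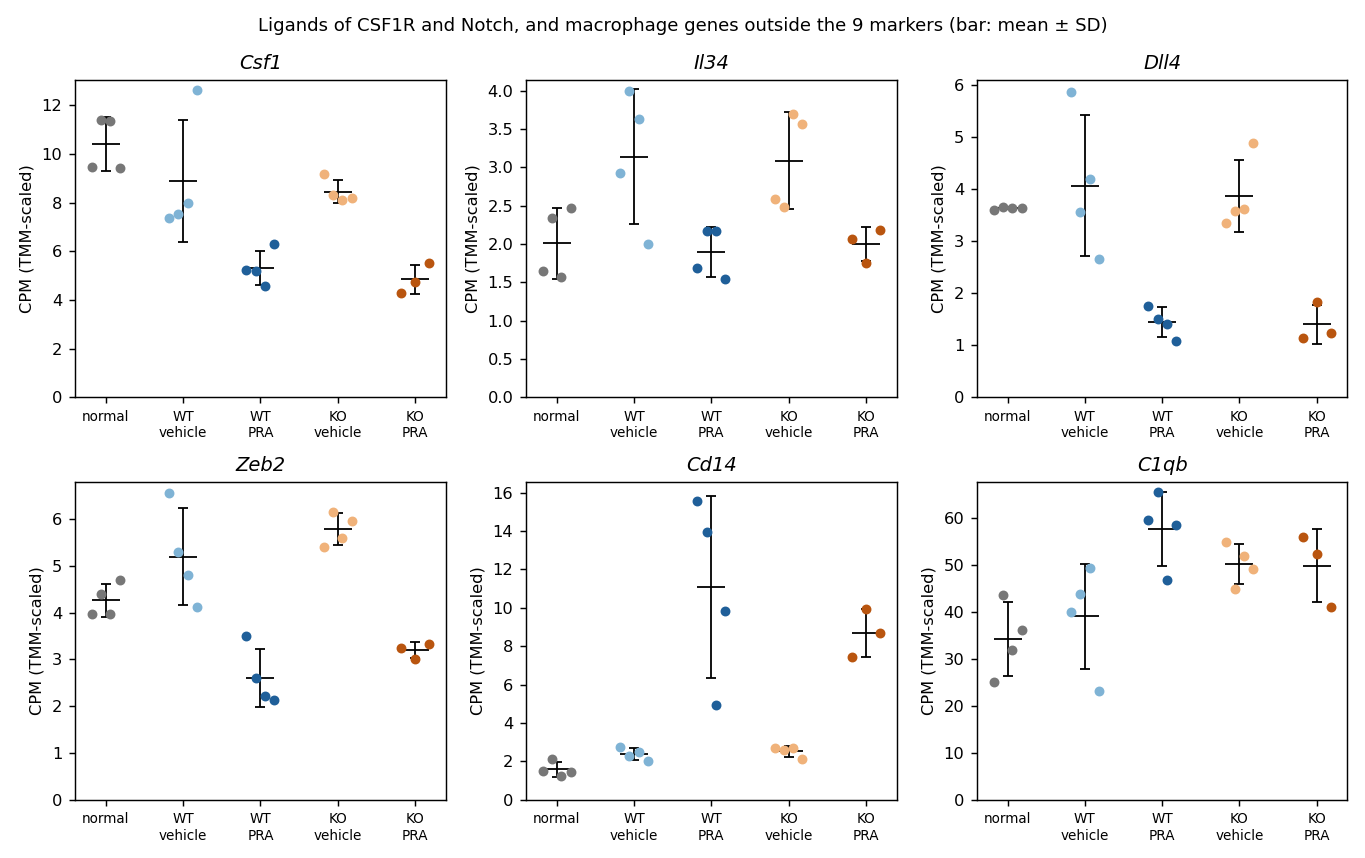
Level in CPM (vertical axis, linear, TMM-scaled) of 6 genes outside the marker list in every library, by group. Points are libraries, and bars are the mean ± SD. Csf1, Dll4 and Zeb2 are lower in all PRA libraries than in all vehicle libraries of the same genotype, Cd14 is higher, and C1qb overlaps between PRA and vehicle.

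Other Kupffer cell and macrophage genes were followed as lists, of which several share genes with hepatocytes or other leukocytes. In WT PRA against WT vehicle, the counts of these lists stand against 9.74% of all genes called higher and 12.3% lower. Of 15 further genes enriched in Kupffer cells, 2 rose and 1 fell (median 0.11), a share near that of all genes. C1qb rose 1.48-fold (edgeR adjusted p = 0.0431) and Cd38 1.33-fold (adjusted p = 0.0495), each in 6 of 18 refits and neither without WT vehicle replicate 4 (adjusted p = 0.0935 and 0.0861), and Slc40a1, the iron exporter ferroportin, fell by 0.59 (adjusted p = 0.0177, in 14 of 18 refits). In knockout PRA edgeR called 0 of these 15, of which 2 had an unadjusted p under 0.05, and 16.3% of all genes. Of 16 pan-macrophage and phagocyte genes 6 rose and 1 fell in WT PRA (median 0.35). Cd14, the coreceptor for endotoxin, led them, from 2.39 ± 0.312 to 11.1 ± 4.74 CPM (2.204 ± 0.25, adjusted p = 3.74e-06), and it rose in knockout livers too (1.78 ± 0.26, adjusted p = 0.000114). Itgam and Fcgr3, a complement receptor chain and an Fc receptor, rose 2.34-fold and 1.625-fold in WT PRA (adjusted p = 0.00294 and 0.0125). In knockout PRA, 1 of these 16 rose, Cd14, and 2 fell, where 16.3% of all genes were called. Their median there was -0.24, and 12 of the 16 estimates were below 0. The interaction called 0 of the 16, against 0.475% of all genes. Unadjusted p was under 0.05 for 8 of them there, against 8.94% of all genes. Their summed level after vehicle was 222.6 to 246.0 CPM in knockout and 123.1 to 222.2 CPM in WT livers. Under PRA it was 184.2 to 211.3 CPM in knockout and 194.8 to 260.1 CPM in WT livers. Of 8 genes for haemoglobin, heme and iron clearance, among them the gene for haptoglobin, part of the Cd163 ligand, 3 rose and 1 fell. Hp, encoding haptoglobin, rose 4.22-fold and Hpx, encoding hemopexin, 2.93-fold (adjusted p = 6.41e-07 and 6.73e-06). Hmox1, the heme-degrading oxygenase, rose 9.98-fold (adjusted p = 3.07e-06) and in knockout livers 8.23-fold (adjusted p = 1.7e-05). In the list of complement C3 and its receptors, which holds the partner proteins of Vsig4, 3 of 8 rose and 0 fell, with C5ar1 2.63-fold higher (adjusted p = 0.00106). Of 6 genes of apoptotic cell clearance, the process in which Timd4 acts, Pros1 rose 1.32-fold (adjusted p = 0.0046) and Stab2 fell by 0.36 (adjusted p = 0.0339, in 11 of 18 refits). Of 12 macrophage cytokine and chemokine genes 8 were tested and 2 rose, Cxcl1 (10.2-fold, adjusted p = 3.55e-06) and Cxcl2 (3.68-fold, adjusted p = 0.0386, in 10 of 17 refits and not without WT vehicle replicate 4, adjusted p = 0.0976).

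Markers of other cells were counted in the same comparison, with 9.74% of all genes called higher and 12.3% lower. Of 12 neutrophil markers, 8 were tested and 7 rose in WT PRA, with a median of 3.31 on the log2 scale, at summed levels of 12.97 to 15.03 CPM in WT PRA, 1.65 to 3.78 in WT vehicle, 5.18 to 7.075 in knockout vehicle and 4.97 to 14.6 CPM in knockout PRA livers. The defining marker Ly6g had 0 to 15 counts over all libraries. S100a8, a neutrophil alarmin, rose from 0.242 ± 0.0576 to 3.355 ± 0.370 CPM (3.75 ± 0.33, edgeR adjusted p = 8.59e-08). Of 14 monocyte markers 3 rose, among them Plac8 and Ace, and 0 fell, and the classical monocyte genes Ccr2 and Ly6c2 stayed at 0.306 to 1.27 and 0.179 to 0.730 CPM over all libraries. Of 7 genes of monocyte-derived macrophages 5 were tested and Lgals3 rose (1.51-fold, adjusted p = 0.0128), while Clec4e had 0 to 12 counts. The injections were given into the peritoneum, whose large macrophages also make Timd4 and Vsig4. Of 3 markers of those cells Gata6 rose (2.22-fold, to 16.3 ± 1.131 CPM, adjusted p = 5.96e-06), whereas Alox15 had 0 to 18 and Garnl3 1 to 20 counts in all libraries, at or under 0.390 CPM. Of 6 dendritic cell markers 1 fell, Zbtb46 (-0.96, adjusted p = 0.000277). The 6 hepatocyte markers found gave no call, and Alb was at 64410 ± 2641 after PRA and 59330 ± 6819 CPM after vehicle (0.12 ± 0.11, adjusted p = 0.464, and -0.17 with libraries scaled by their totals alone). The part of these cells in the levels of the 9 markers was not tested.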

How the data were processed

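Poly(A) RNA of mouse liver, in 19 libraries, was analysed from gene counts deposited by the authors as whole-number counts per gene, one file per library plus a table of the series with identical values. Per the submitters' processing notes, reads were handled with HISAT2 2.2.1, SAMtools 1.13 and HTSeq 0.11.3 on GRCm39. The annotation release and strand setting were not given in the sources used here. Of all counted reads, 66.95% to 71.71% were assigned to genes, and library sizes used gene rows only. Groups came from the labels. The main test was edgeR 4.0.16 (R 4.3.3): low-count filter by group, TMM scaling, one mean per group over all 19 libraries, robust quasi-likelihood F tests and Benjamini-Hochberg adjustment over 15570 genes at 0.05. CPM values are TMM-scaled, and log2 CPM for deviations used a prior count of 2. Alternatives were RLE, upper quartile and total scaling, no filter, a filter of 1 CPM in 3 libraries, DESeq2 1.42.0, limma-voom with sample weights (limma 3.58.1), the replicate number as a block, only the groups compared, and each library left out. Total scaling, leaving out normal replicate 1 with WT vehicle replicate 4, and the contrast averaged over treatments were added after seeing the data. The edgeR procedure was tested on simulated counts. The members and lists were chosen with earlier results of these data known. The text names all 9 markers, up to 3 genes per context list with the smallest p among those that passed in WT PRA against WT vehicle (if none passed, the most abundant), and the 8 genes most like the markers. Some genes this rule names are not reported here. Exon lengths, overlaps and promoters come from GENCODE vM21 and RefSeq on GRCm38, used for lengths and sequences only. Floors and intervals of counts cover counting error only.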

Additional observations from a re-analysis of the deposited data

Results flagged for a closer look

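Among 40 groups of 4 libraries screened over the 9 markers and their summed level, 3 held a library far below the others, and chance gives such a gap in about 1 of 20 groups. Clec4f was at 43.44 CPM in WT vehicle replicate 4, against 89.5 to 92.8 CPM in the other 3 libraries. Folr2 was at 2.981 CPM in the same library, against 7.34 to 7.66 CPM. In WT PRA replicate 3 Folr2 was at 5.835 CPM, against 9.22 to 9.61 CPM in the others.

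The response to PRA differed between genotypes for 3 genes named outside the marker list, by the edgeR interaction test (knockout response minus WT response on the log2 scale). For S100a8, a neutrophil alarmin, the difference was -2.741 (adjusted p = 0.00328), past the threshold in 25 of 25 refits. Its level after vehicle was already higher in knockout livers, at 0.860 to 1.316 CPM against 0.200 to 0.327 CPM in WT. Under PRA the genotypes overlapped, at 1.083 to 3.818 CPM in knockout and 2.976 to 3.789 CPM in WT livers. For Abca1, a cholesterol exporter, it was -0.7694 (adjusted p = 0.0174), past the threshold in 22 of 25 refits. For Hpx, encoding the heme carrier hemopexin, it was -1.286 (adjusted p = 0.0327), past the threshold in 11 of 25 refits and not without WT vehicle replicate 4 (-1.21, adjusted p = 0.0771).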

How the results depend on the processing

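For the 9 markers, 65 fold changes were refitted 1229 times: 1144 kept direction and side of the threshold, 3 lost the threshold, 22 gained it and 60 changed sign. The cause of these changes was not tested.

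The number of markers past the threshold was 1 in WT PRA against WT vehicle with limma-voom and with only the groups compared (0 to 1 with 1 library left out). It was 1 in knockout PRA against knockout vehicle with only the groups compared, 1 in knockout PRA against WT PRA with limma-voom and with only the groups compared, and 1 in knockout vehicle against WT vehicle with DESeq2 and with only the groups compared. In WT vehicle against normal it was 1 with upper quartile scaling, the 1 CPM filter, DESeq2, limma-voom and without both low libraries (0 to 1 with 1 left out). In WT PRA against normal it was 5 with DESeq2, 5 with limma-voom and 1 with total scaling. In knockout against WT over both treatments it was 2 with limma-voom and 2 without both low libraries. In the test over 5 groups it was 6 with DESeq2, 5 with limma-voom and 6 without both low libraries (2 to 7 with 1 left out).

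Fold changes that changed sign are given as log2 values. Without both low libraries, knockout vehicle against WT vehicle gave -0.074 for Clec4f, -0.068 for Vsig4, -0.093 for Adgre1, -0.22 for Folr2 and -0.012 for Csf1r. WT PRA against WT vehicle then gave -0.036 for Timd4, -0.23 for Adgre1 and -0.21 for Csf1r, and the interaction 0.21 for Timd4, 0.012 for Adgre1 and 0.041 for Cd163. With total scaling, WT PRA against WT vehicle gave -0.12 for Timd4, -0.019 for Cd5l, -0.31 for Adgre1, -0.31 for Csf1r and -0.17 for Alb. Knockout PRA against knockout vehicle then gave -0.037 for Timd4 and -0.17 for Marco, the interaction 0.080 for Timd4, and knockout vehicle against WT vehicle -0.0040 for Folr2. Upper quartile scaling gave -0.035 for Adgre1 and -0.046 for Csf1r in WT PRA against WT vehicle, the 1 CPM filter -0.0034 for Csf1r there, and limma-voom 0.038 for Timd4 in the interaction.

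With 1 library left out, WT PRA against WT vehicle ranged from -0.036 to 0.35 for Timd4, -0.23 to 0.39 for Adgre1 and -0.21 to 0.23 for Csf1r. Knockout PRA against knockout vehicle ranged from -0.12 to 0.023 for Clec4f, -0.086 to 0.026 for Vsig4, -0.59 to 0.44 for Marco and -0.28 to 0.010 for Folr2. The interaction ranged from -0.18 to 0.21 for Timd4, -0.59 to 0.012 for Adgre1 and -0.50 to 0.083 for Cd163. Knockout vehicle against WT vehicle ranged from -0.074 to 0.21 for Clec4f, -0.068 to 0.33 for Vsig4, -0.092 to 0.51 for Adgre1, -0.22 to 0.12 for Folr2 and -0.0115 to 0.41 for Csf1r. Knockout PRA against WT PRA ranged from -0.24 to 0.069 for Adgre1, and WT vehicle against normal from -0.43 to 0.21 for Marco.

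Samples of different groups with the same replicate number had r from -0.253 to 0.193 (median 0.00535, over 0.1 in 9 of 36 pairs). Samples with different numbers had r from -0.225 to 0.269 (median -0.00767, over 0.1 in 16 of 108 pairs). These correlations over all genes gave no clear pairing by number and cannot exclude a weak one. With the number as a block, 3204 genes passed in WT PRA against WT vehicle against 3437 without it, and 2175 against 2544 in knockout livers. The block took Timd4 out of the calls over 5 groups (2 markers against 3), changed no other marker call, and turned Marco in knockout livers to -0.12 and Adgre1 and Csf1r in WT livers to -0.0017 and -0.0070.

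Scaling moved the split of all genes in WT PRA against WT vehicle, from 1516 higher and 1921 lower to 1238 and 2399 with upper quartile scaling and to 660 and 6374 with total scaling, where the median of all genes was -0.33.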
